A study of Homo sapiens with 12 samples.

Results

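Bafilomycin A1 (BafA1), a macrolide that blocks the proton pump of lysosomes, was compared with no drug in HEK293T cells that received no added iron. The comparison used 6 of the 12 libraries of the series: 3 control libraries and 3 BafA1 libraries, taken by their labels. A gene was tested where its FPKM averaged 1 or more in these 6 libraries. That kept 13493 of 56337 genes, of which 11513 are protein coding, out of 19550 protein-coding genes in the table. FPKM are fragment counts scaled to transcript length and sequencing depth.

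HEK293T is a transformed line from human embryonic kidney. It expresses the large T antigen of SV40, a viral protein that binds p53 and RB. All cells were labelled wild type and were grown in RPMI with 10% FBS at 5% CO2 and 21% O2. Both groups went through a 24 h preincubation in which ferric ammonium citrate (FAC), an iron source, was at 0 mg/ml. Control cells then had 24 h without BafA1 and treated cells had 24 h with BafA1 at 10 nM, so every value is from 1 dose and 1 time. The other 6 libraries are from cells preincubated with FAC at 0.1 mg/ml, without or with BafA1, and enter only where the same genes are followed into iron-loaded cells. The labels number the replicates without saying that they were separate cultures, so p-values measure the spread between these libraries.

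As background, the V-ATPase uses ATP to pump protons into endosomes and lysosomes. Low pH lets lysosomal hydrolases break down protein, lipid and organelles, and lets transferrin release its iron. Lysosomes return amino acids, cholesterol and iron to the cytosol, and mTORC1 senses this supply on their surface. A shortage of amino acids activates the kinase GCN2 (EIF2AK4), misfolded protein in the endoplasmic reticulum (ER) activates PERK (EIF2AK3), IRE1 and ATF6, and misfolded protein in the cytosol activates heat shock factor 1. GCN2 and PERK both phosphorylate the initiation factor eIF2, which lowers bulk translation and favours the transcription factor ATF4.

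Depth in fragments is unknown. FPKM, already scaled for depth, summed to 637374 to 649406 in control and to 600261 to 604483 in BafA1, and 13244 to 13597 genes per library were at 1 FPKM or more. Log2 values correlated at 0.991 to 0.993 within groups and at 0.952 to 0.958 between them, across genes, which are not independent replicates. Mitochondrially encoded genes took 1.65% to 2.27% of all FPKM in control and 2.46% to 3.09% in BafA1. Of 8 genes used as markers of the line, PAX2 stayed under the expression minimum and 7 were tested, with summed levels of 151 to 154 FPKM in control and 208 to 225 in BafA1. Markers of other cells were low. Of 8 keratinocyte or HeLa markers, none passed the minimum, KRT7, KRT16 and KRT6A were among those listed at 0, and the sum was 0.13 to 0.27 FPKM in control and 0.77 to 1.33 in BafA1. Of 13 blood markers, 3 passed, TYROBP and HBB were at 0, and the sum was 5.64 to 9.15 against 4.48 to 4.76 FPKM. Of 8 fibroblast markers, COL1A1 alone passed, COL1A2 was at 0, and the sum was 5.17 to 7.55 against 3.37 to 3.96 FPKM. The part of these markers and of the mitochondrial share in the results was not tested.

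The treated cells differed from control over most of the transcriptome. Among protein-coding genes, 3548 rose (30.8%) and 4449 fell (38.6%) in BafA1 at an adjusted p under 0.05, which is the meaning of a call below; over all 13493 genes these shares were 29.4% and 36.5%, or 3.09% and 2.21% for changes of at least 1 log2 unit. Most changes were small: 2454 of the genes that rose and 3020 of those that fell did so by less than 1.5-fold. The tail was longer upward. A change of at least 1 log2 unit was reached by 344 genes that rose (2.99%) and by 238 that fell (2.07%), and a change of at least 2 log2 units by 52 and 2. The median change was −0.05 log2 units, with the 5th percentile at −0.81 and the 95th at 0.81. In bulk RNA, fewer cells with a transcript and less of it per cell cannot be told apart. Of protein-coding genes, 69.5% were called in either direction, and 68.6% were called with no overlap between groups.

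**Figure D1:**
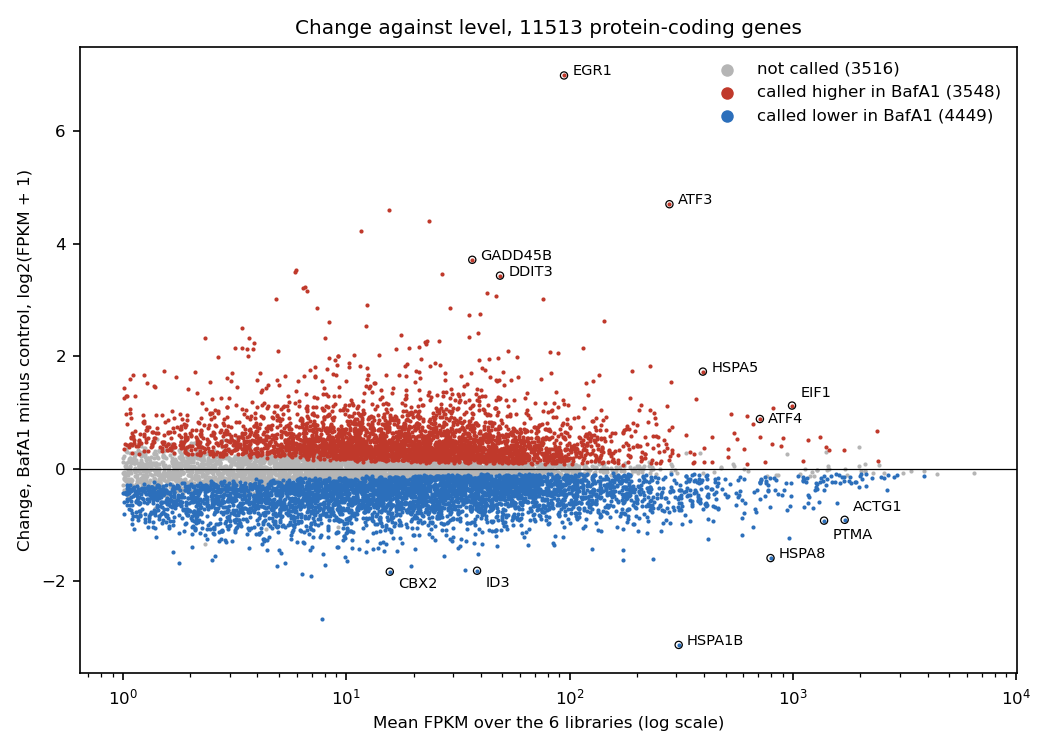
Change in BafA1 on the log2(FPKM + 1) scale against the mean FPKM of the 6 libraries (log axis) for 11513 protein-coding genes, with called genes in red (3548 higher) and blue (4449 lower). The largest changes are upward, with EGR1 at 6.98 and ATF3 at 4.70, and HSPA1B at −3.13 is the largest decrease.

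The split between rises and falls depended on the scaling. As deposited, 44.4% of protein-coding calls were rises. That share was 50.6% after median-of-ratios scaling, 47.1% after quantile normalization, 55.8% with mitochondrial genes removed and the rest rescaled, and 54.5% after rescaling to TPM. Under all of these, 3450 genes (30.0%) rose and 3438 (29.9%) fell, and counts for gene groups are given below with their number called under all scalings where that number differs. Group counts are to be read beside the shares over all protein-coding genes, 30.8% higher and 38.6% lower. Counts near those shares are no result about a group. Because 1 was added to FPKM before the logarithm, log2 changes of genes near 1 FPKM are understated.

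The leading rises were transcription factors and stress genes. EGR1, the early growth response factor made within minutes of growth signals in many cells, stood at 0.49, 0.5 and 0.47 FPKM in control and 203, 197 and 164 in BafA1. ATF3, a transcription factor induced by ATF4 and by many stresses, was at 18.4, 21.4 and 19.7 FPKM in control and 522, 565 and 531 in BafA1. FOS, the partner of JUN in the factor AP-1, was at 0.29, 0.36 and 0.27 FPKM in control and 31.9, 32.9 and 27.5 in BafA1. The log2 changes of these genes were 6.98 ± 0.08, 4.70 ± 0.06 and 4.60 ± 0.08 (± SE, adjusted p = 1.3e-08, 1.3e-08 and 3.85e-08). Genes entered the 20 largest rises or falls, or the 10 largest FPKM changes each way, only where the groups did not overlap. Separate groups are therefore no added evidence for them.

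Genes of growth arrest and of stalled translation were also among the 20 largest rises. GADD45B and GADD45A, which encode small proteins that bind stress kinases and PCNA, rose 15.8-fold and 9.16-fold. GADD45B was at 5.16, 4.43 and 3.5 FPKM in control and 75.9, 68.3 and 62.4 in BafA1, and GADD45A at 9.67, 9.41 and 8.51 FPKM in control and 80.8, 84.5 and 87.6 in BafA1. PPP1R15A, which brings a phosphatase to eIF2 and reverses its phosphorylation, was at 7.9, 7.86 and 8.12 FPKM in control and 80, 78.4 and 73.2 in BafA1, a 9.7-fold rise. DDIT3 (CHOP), a factor linked to death under ER stress, was at 8.36, 7.49 and 6.58 FPKM in control and 91.2, 92.9 and 86 in BafA1 (log2 3.43 ± 0.08, adjusted p = 8.24e-08). DDIT3 overlaps MARS1 and MBD6 in the annotation, and how the counting treated strand is not given in the sources used here.

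Several of the 20 largest rises were nearly silent in control cells. TCIM, a small protein linked to thyroid cancer, was at 0.11, 0.15 and 0.07 FPKM in control and 11.9, 11.7 and 11.7 in BafA1. ANKRD1, a muscle ankyrin repeat protein and a target of YAP, was at 0.05, 0.09 and 0.23 FPKM in control and 11.7, 12 and 11.3 in BafA1. HSPB8, a small heat shock protein that works with BAG3 in selective autophagy, was at 0.35, 0.48 and 0.53 FPKM in control and 13.3, 12.5 and 12.1 in BafA1. None of the control libraries reached 1 FPKM in these genes. MAFF, ETV5, TCEAL7, ARC, GEM, GPR50, TNFRSF12A, C11orf96, CTH and DNAJB9 complete the group, and CTH, the cystathionine gamma-lyase that makes cysteine, had the highest control level of these at 15.9 ± 0.928 FPKM (SD, n = 3) and reached 135 ± 2.64 in BafA1.

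**Figure D2:**
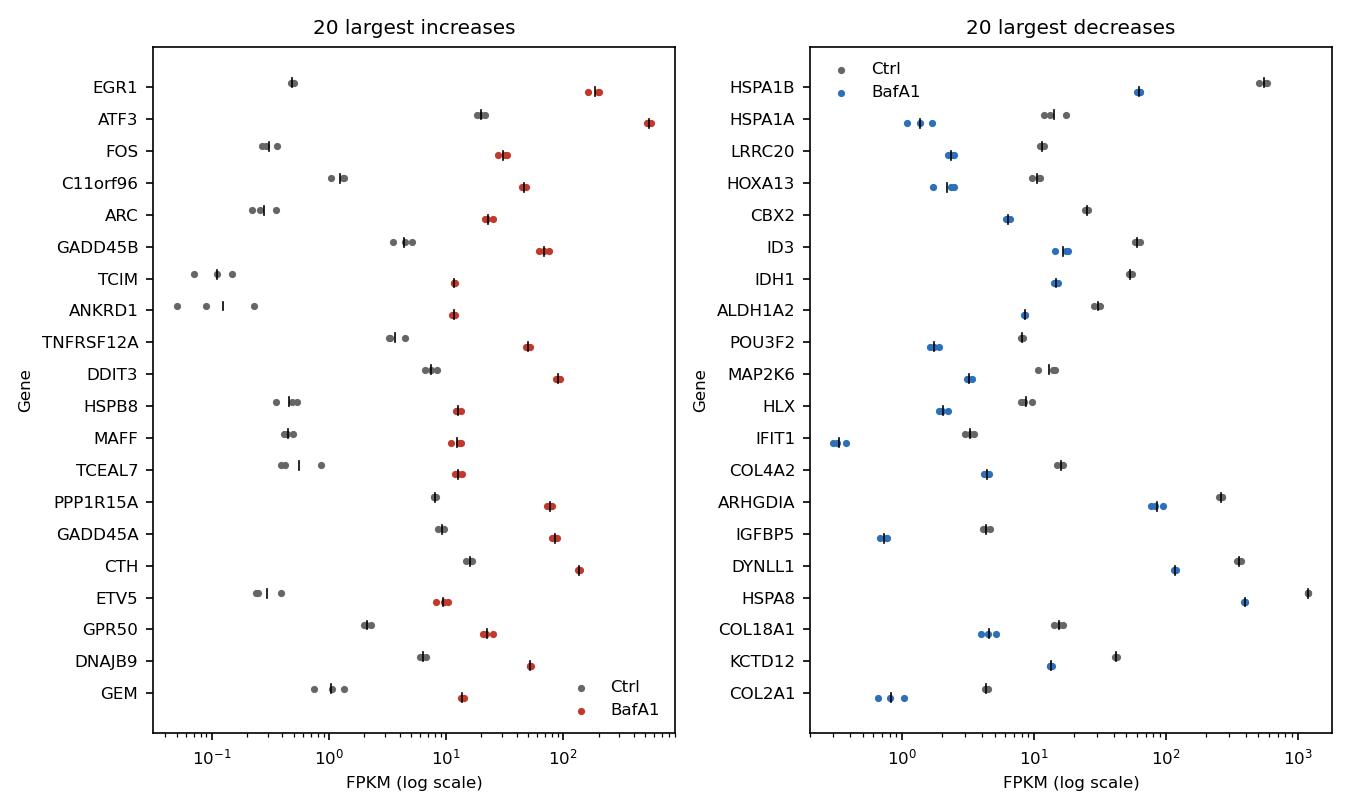
FPKM (log axis) in each of the 3 control and 3 BafA1 libraries for the 20 largest rises and the 20 largest falls among protein-coding genes; points are libraries and black ticks are group means. The groups are separate in all 40 genes, since genes whose groups overlapped were not eligible, and EGR1 rises from 0.487 to 188 FPKM on average.

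Known stress elements can be read in the promoters of several genes that rose or fell in BafA1. The sequences below are 200 bases before the start site, 5′ to 3′ on the strand of the gene, from RefSeq on GRCh38.p14 (the start site listed first for each gene). They are shown as examples, chosen with values known, of genes that hold such an element and rose or fell by at least 1 log2 unit. XBP1, a transcription factor of the ER stress response, rose by 1.73 log2 units. Capitals mark a motif match on either strand. For EGR1 (chr5:138465279-138465478, plus strand) the capitals are serum response elements, here CC, AT and GG with 2 bases between each, and for DUSP1 (chr5:172771196-172771395, minus strand) the cyclic AMP response element TGACGTCA.
EGR1: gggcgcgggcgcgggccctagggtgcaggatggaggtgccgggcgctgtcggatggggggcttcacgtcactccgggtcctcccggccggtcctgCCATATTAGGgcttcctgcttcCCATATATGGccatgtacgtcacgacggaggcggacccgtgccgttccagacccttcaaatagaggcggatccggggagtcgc
DUSP1: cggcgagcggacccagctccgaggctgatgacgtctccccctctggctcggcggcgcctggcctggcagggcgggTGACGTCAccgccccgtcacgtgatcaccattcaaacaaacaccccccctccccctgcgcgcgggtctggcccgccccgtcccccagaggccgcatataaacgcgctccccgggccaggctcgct
For ASNS (chr7:97872409-97872608, minus strand) and HERPUD1 (chr16:56931942-56932141, plus strand) the capitals are the amino acid response element TGATGNAAN, which is bound by ATF4 with a C/EBP partner. In HERPUD1 it lies on the other strand.
ASNS: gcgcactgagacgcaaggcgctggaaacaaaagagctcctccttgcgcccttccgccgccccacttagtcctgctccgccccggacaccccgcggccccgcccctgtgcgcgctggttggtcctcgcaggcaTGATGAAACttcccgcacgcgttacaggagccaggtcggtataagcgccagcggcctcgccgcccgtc
HERPUD1: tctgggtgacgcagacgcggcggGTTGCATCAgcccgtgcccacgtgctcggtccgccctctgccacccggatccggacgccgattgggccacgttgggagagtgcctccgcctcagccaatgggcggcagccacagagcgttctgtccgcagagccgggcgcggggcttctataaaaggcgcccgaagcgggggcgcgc
For HSPA5 (chr9:125241344-125241543, minus strand) and XBP1 (chr22:28800570-28800769, minus strand) the capitals are the ER stress element, CCAAT and CCACG with 9 bases between them, which is bound by ATF6 with NF-Y.
HSPA5: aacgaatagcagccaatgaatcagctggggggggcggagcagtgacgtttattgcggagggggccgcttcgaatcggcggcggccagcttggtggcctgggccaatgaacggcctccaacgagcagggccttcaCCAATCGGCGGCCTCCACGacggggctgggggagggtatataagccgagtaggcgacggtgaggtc
XBP1: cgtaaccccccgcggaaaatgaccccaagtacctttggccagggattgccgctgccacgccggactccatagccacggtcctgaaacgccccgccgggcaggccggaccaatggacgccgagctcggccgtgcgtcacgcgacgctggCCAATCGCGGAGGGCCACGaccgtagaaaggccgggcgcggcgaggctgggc
For HSPA1B (chr6:31827538-31827737, plus strand) and HSPA8 (chr11:123062137-123062336, minus strand), whose transcripts fell, the capitals are the paired heat shock unit GAANNTTC.
HSPA1B: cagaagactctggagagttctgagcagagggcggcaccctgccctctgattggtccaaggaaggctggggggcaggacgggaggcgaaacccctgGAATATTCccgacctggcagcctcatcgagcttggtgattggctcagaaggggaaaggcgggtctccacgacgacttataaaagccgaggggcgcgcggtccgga
HSPA8: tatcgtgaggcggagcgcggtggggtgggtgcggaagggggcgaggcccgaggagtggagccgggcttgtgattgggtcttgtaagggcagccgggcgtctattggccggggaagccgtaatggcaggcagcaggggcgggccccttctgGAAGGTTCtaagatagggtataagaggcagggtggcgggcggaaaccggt

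Promoters of 250 bases were searched for 24 such strings on both strands in 9486 of 11513 protein-coding genes tested, those with an entry in the table. The ER stress element was in 14 of all promoters (0.148%) and in 5 (1.85%) of the 271 promoters of genes that rose by at least 1 log2 unit. HSPA5 and XBP1, shown above, are among those 5. It was in none of the 199 promoters of genes that fell by as much. The amino acid element was in 1.31%, 2.95% and 1.01%, the cyclic AMP element in 3.14%, 5.90% and 1.51%, and the AP-1 site TGAGTCA in 2.02%, 5.17% and 0.503%. GAANNTTC was in 3.82%, 7.01% and 4.52%, and the TATA string TATAAA in 4.85%, 12.2% and 5.03%. The loose serum response pattern, CC, AT and GG with any 2 bases between each, was in 4.08%, 6.27% and 2.51%. That is not the rate of the element itself, of which 2 strict forms were in 4 and 3 of the 9486 promoters. The other strings searched were TGANTCA, which contains TGAGTCA, and TGATGCAA, a form of TGATGNAAN. Further ones were the E-box CACGTG and the longer GTCACGTG that contains it, the sterol element TCACGCCAC, the NRF2 element TGACTCAGC (which overlaps the AP-1 site), TGACGTGG (a relative of the cyclic AMP element), the MTF1 core TGCACTC, the hypoxia string TACGTG, and CCAAT by itself, the start of the ER stress element. A further 5 strings of 10 or more letters were searched and are given by name: 2 strict forms of the serum response element, a heat shock element of 3 units, the NRF1 palindrome and a sterol regulatory element. The ETS string CCGGAAG was in 17.1%, 14.4% and 8.04%, and the GC box GGGCGG in 69.5%, 66.8% and 76.9%. CCAAT was in 35.8%, 42.1% and 44.7%, CACGTG in 9.23%, 11.4% and 10.1%, and the NRF1 palindrome in 2.07%, 0.369% and 1.51%. A match is a description of the letters, with no test, and the strings were chosen with results of these data known.

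Genes that supply the cytosol with amino acids were mostly higher. Of 20 amino acid transporters tested, 13 rose and 3 fell, with a median of 0.53. SLC7A11, the cystine carrier, was at 7, 6.9 and 7.36 FPKM in control and 34.3, 35.7 and 35.2 in BafA1, and its partner chain SLC3A2 at 101, 97.2 and 103 FPKM in control and 358, 351 and 366 in BafA1. The folds were 4.95 and 3.56. SLC1A4 and SLC6A9, carriers of neutral amino acids and of glycine, rose by 2.00 and 1.93 log2 units. SLC43A2, SLC1A1 and SLC7A2, carriers of branched-chain, acidic and cationic amino acids, fell by 0.83, 0.82 and 0.73.

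The synthetases that charge transfer RNA divided by compartment. Of 20 cytosolic enzymes, 14 rose and 4 fell (3 under all scalings), with a median of 0.48, and SARS1, CARS1 and GARS1 rose by 1.05, 1.05 and 1.04. GARS1, which charges glycine, was at 160.3, 139.8 and 147 FPKM in control and 311, 318 and 293 in BafA1. VARS1, HARS1, RARS1 and KARS1 fell, KARS1 by 0.28; KARS1 and GARS1 each serve both compartments. Of 17 mitochondrial enzymes, SARS2 alone rose, by 0.16, but not under all scalings nor without any 1 library other than BafA1 replicate 3, 10 fell (9 under all scalings) and the median was −0.33. LARS2, the mitochondrial leucine enzyme, was at 37.7, 39.5 and 35.7 FPKM in control and 19.2, 19 and 18 in BafA1, a log2 change of −0.97 ± 0.05 (adjusted p = 2.8e-06). The exporter of transfer RNA from the nucleus, XPOT, rose by 1.05. The 46 nuclear pore and karyopherin genes as a group had 17 rises (37.0%), 14 falls (30.4%, 8 genes under all scalings) and a median of 0.03. Over all protein-coding genes the shares were 30.8% and 38.6%.

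Enzymes that make amino acids went both ways. In serine, glycine and folate metabolism 6 of 17 rose (35.3%) and 7 fell (41.2%, 6 genes under all scalings), median 0.05. Those shares are near the 30.8% and 38.6% of all protein-coding genes. The mitochondrial folate enzymes ALDH1L2 and MTHFD2 rose by 1.88 and 1.25, and the serine enzymes PSPH and PSAT1 by 1.12 and 0.80. MAT2A, which makes the methyl donor S-adenosylmethionine, fell from 141 ± 5.76 to 75.4 ± 9.01 FPKM, and MTHFD2L and GLDC fell by 0.85 and 0.72. Among 18 enzymes of asparagine, cysteine, proline and transamination, 7 rose (38.9%) and 8 fell (44.4%, 5 genes under all scalings). Their median was −0.05 as deposited and 0.01 to 0.06 under the other scalings. CTH and ASNS, the asparagine synthetase, led the rises, and PYCR3, a proline enzyme, fell by 1.12 against falls of 0.49 for OAT and 0.39 for BCAT2.

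Stress-response transcription factors and genes of the eIF2 pathway, taken as 1 list, were led by a few genes. Of 24, 13 rose and 3 fell, with a median of 0.75 and ATF3 highest at 4.70. TRIB3, a pseudokinase induced by ATF4 and CHOP, was at 9.22, 8.82 and 7.57 FPKM in control and 62.8, 65.2 and 57.6 in BafA1. ATF4 itself, already abundant, was at 498, 507 and 492 FPKM in control and 939.9, 944 and 882 in BafA1, a 1.85-fold rise. EIF2AK4, the gene of GCN2, fell by 0.62, and TRIB2 and EIF2B1 fell by 0.60 and 0.29. Of 24 genes of mTORC1 and its regulators 9 rose and 6 fell (7 and 4 under all scalings), median 0.02. SESN2, a leucine sensor that restrains mTORC1, was at 19.3, 20 and 19.5 FPKM in control and 85.7, 87.1 and 86.1 in BafA1. DDIT4, another inhibitor, rose by 0.98, and the Rag regulators FNIP1 and FLCN by 0.74 and 0.34. SESN1 and SESN3, relatives of SESN2, fell by 0.75 and 0.47.

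The translation machinery moved little by comparison. Of 37 initiation and elongation factors 13 rose (35.1%) and 14 fell (37.8%), near the shares of all protein-coding genes as deposited. The split depended on the scaling, with 21 rises and 8 falls after quantile normalization. Under all scalings 13 of 37 rose and 5 of 37 fell, against 30.0% and 29.9% of protein-coding genes. The median of −0.01 was 0.05 to 0.16 under the other scalings. EIF1, which helps the ribosome choose its start codon, was at 644, 628 and 597 FPKM in control and 1368, 1394 and 1307 in BafA1. EIF1 and the elongation factor EEF2, which rose by 0.57, were among the 10 largest gains in FPKM. EIF4EBP1, the inhibitor of cap binding, rose by 0.86, and EIF5A, EIF3K, EIF3I and EIF4G1 fell by 0.77, 0.50, 0.47 and 0.41. Among 42 ribosome biogenesis factors 17 rose and 14 fell (10 under all scalings) with a median of 0.00. RRP12 rose by 1.03 and UBTF, the factor that opens ribosomal DNA, fell by 1.10 from 63.2 ± 0.579 to 28.9 ± 0.404 FPKM. None of 36 cytosolic ribosomal protein genes rose and 25 fell, by small amounts (median −0.14). Single scalings gave 2 to 5 rises and 7 to 13 falls, and 6 genes fell under all of them. The falls numbered 15 without BafA1 replicate 1 and 16 without Ctrl replicate 2, 16 without the intensity trend and 14 without the expression minimum, and 1 gene rose without BafA1 replicate 3. RPL35, RPL24, RPL22 and RPL27 fell most, by 0.47, 0.38, 0.36 and 0.33. Ribosomal protein genes have many processed copies in the genome, among which reads are divided by estimate.

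The early secretory pathway was higher at nearly every step. Of 27 ER chaperones and folding enzymes 19 rose and 2 fell (none under all scalings, and 1 without BafA1 replicate 2), with a median of 0.57. DNAJB9, a co-chaperone of BiP, was at 6.17, 6.68 and 6.01 FPKM in control and 51.8, 52.5 and 51.6 in BafA1. BiP itself (HSPA5) was at 186, 183 and 179.9 FPKM in control and 611, 629.9 and 579 in BafA1, and GRP94 (HSP90B1) at 430.4, 421 and 427 FPKM in control and 821, 828 and 798 in BafA1. The folds were 8.27, 3.32 and 1.92. HYOU1 and DNAJC3 rose by 1.10 and 1.27. The falls were CALR, a lectin chaperone, by 0.10 and CRELD2 by 0.21. CALR had the other sign under 3 scalings, at 0.17 after quantile normalization (adjusted p = 0.00133), 0.02 with mitochondrial genes removed and 0.00 after rescaling to TPM.

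Genes that remove misfolded protein from the ER also rose: 17 of 23 were higher and 5 lower (1 under all scalings, and 3 without Ctrl replicate 1), median 0.52. HERPUD1, which assembles the retrotranslocation complex, was at 39.3, 37.2 and 40.8 FPKM in control and 243, 259 and 233 in BafA1. SYVN1, the ubiquitin ligase of that complex, rose by 1.57, SELENOS by 1.52 and ERLEC1 by 1.29. OS9, UBE2G2, UBE2J2 and UFD1 fell by 0.14 to 0.23. Of 32 genes for the translocon, the signal peptidase and the oligosaccharyltransferase, 22 rose and 7 fell (5 under all scalings), median 0.31. SEC61A1, the pore of the translocon, was at 111, 109 and 109 FPKM in control and 274, 256 and 259 in BafA1. SSR3, SSR2 and SRPRB rose by 1.13, 1.12 and 1.08, while SRP9, SRP14, SPCS1 and DAD1 fell by 0.47, 0.42, 0.44 and 0.38.

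Vesicle transport between the ER and the Golgi showed the highest share of rises among the pathway lists apart from the immediate early and MAP kinase feedback genes. Of 40 genes 34 rose and 3 fell, median 0.50, and the same numbers were called under all scalings together, with 35 rises under 2 of them. SEC24D, a cargo adaptor of the COPII coat, was at 11.5, 11.9 and 11.5 FPKM in control and 65.8, 68.6 and 65 in BafA1, a 5.72-fold rise. SEC23B, another coat subunit, was at 45.2, 41.8 and 42 FPKM in control and 98.4, 95.7 and 97.9 in BafA1. The Golgi tethers GOLGB1 (giantin) and GOLGA2 (GM130) rose by 1.41 and 1.29. COPG2, COPZ1 and LMAN2 fell by 0.42, 0.38 and 0.21.

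**Figure D3:**
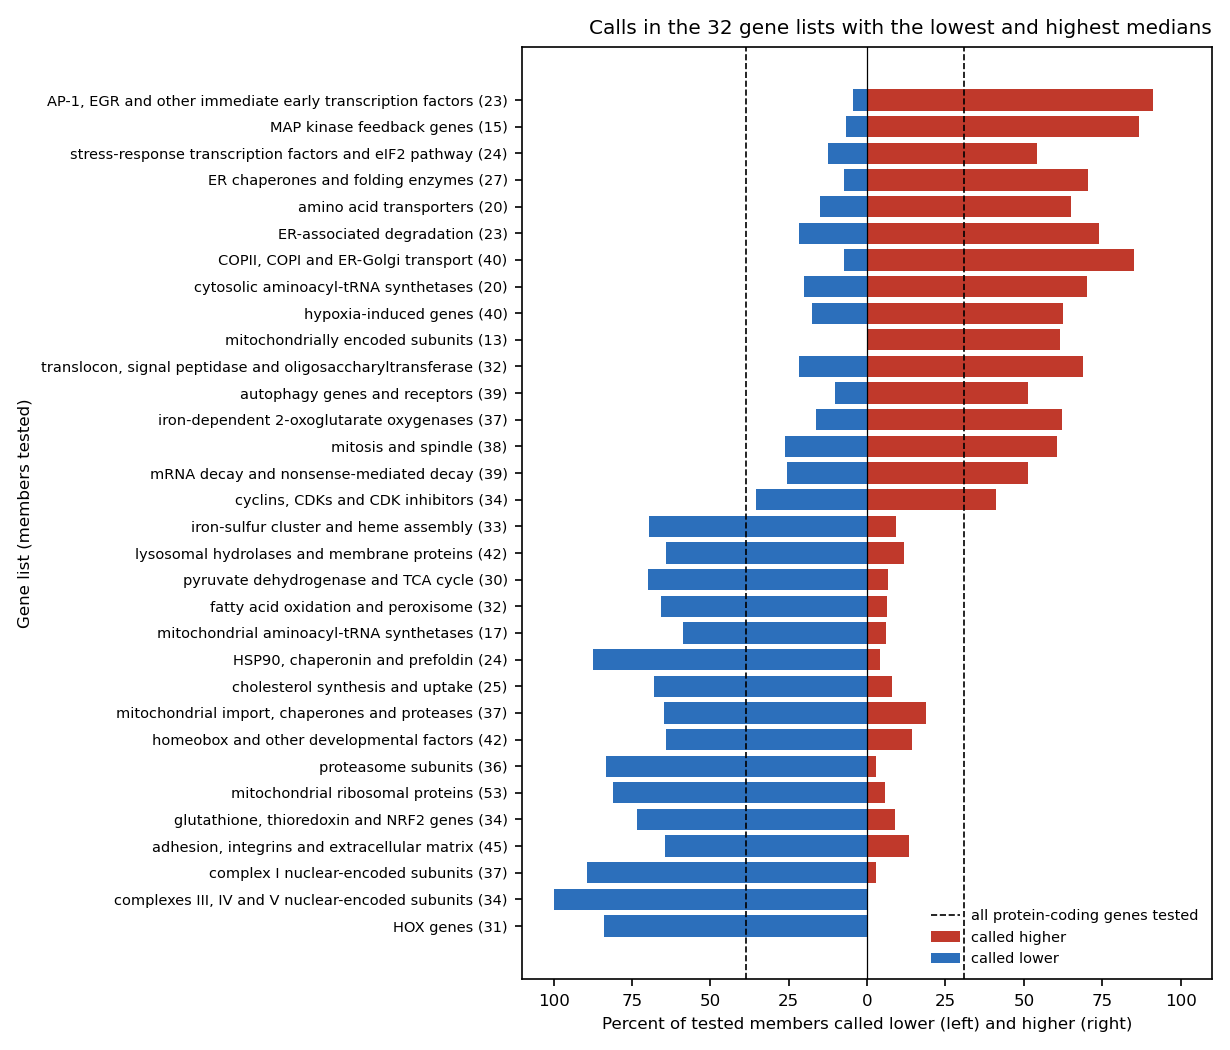
Percent of tested members called lower (left, blue) and higher (right, red) in BafA1 in the 32 gene lists with the lowest and highest median changes among those with at least 10 members tested; dashed lines mark the shares over all protein-coding genes (38.6% lower, 30.8% higher). Secretory, immediate early and amino acid lists extend right, and respiratory chain, proteasome and HOX lists extend left.

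Immediate early genes, which respond to signals without new protein synthesis, rose as a group: 21 of 23 were higher and 1, IER5, was lower, with a median of 1.66. MAFF, a small MAF protein, was at 0.41, 0.44 and 0.49 FPKM in control and 12.8, 13.3 and 11.1 in BafA1, and ARC, known from synapses, at 0.26, 0.35 and 0.22 FPKM in control and 25, 22.2 and 21.5 in BafA1. Genes that feed back on MAP kinases were higher in 13 of 15 and lower in 1 (DUSP7, not under all scalings nor without Ctrl replicate 2 or 3 or BafA1 replicate 2 or 3), median 0.99. DUSP1, a phosphatase of p38 and JNK, was at 9.56, 9.94 and 9.03 FPKM in control and 69, 72.3 and 67.5 in BafA1. ETV5, a target of ERK signalling, was at 0.25, 0.39 and 0.24 FPKM in control and 9.65, 10.4 and 8.21 in BafA1, and DUSP8 and DUSP16 rose by 2.33 and 1.94.

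Other signalling pathways were mixed or mostly lower. Of 18 secreted factors 8 rose and 6 fell (5 under all scalings). CXCL8 (interleukin 8) was at 0.06, 0.09 and 0.17 FPKM in control and 4.43, 4.93 and 4.29 in BafA1. INHBA and STC2, an activin chain and a stanniocalcin, rose by 1.66 and 1.95, and MDK (midkine), IGFBP2 and IGFBP5 fell by 1.36, 1.21 and 1.61. In the BMP and TGF-beta pathway 10 of 31 rose (32.3%) and 11 fell (35.5%, 9 genes under all scalings), near the shares of all protein-coding genes. ID3, an inhibitor of basic helix-loop-helix factors and a direct BMP target, was at 58, 63.5 and 59.6 FPKM in control and 17.3, 14.3 and 18.1 in BafA1. SMAD6, an inhibitor that BMP signals induce, fell by 1.41 and BAMBI by 1.09, while BMP2 and ID4 rose by 1.36 and 0.73.

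Of 29 Wnt pathway genes 7 rose (6 under all scalings) and 16 fell (13 under all scalings), median −0.26. AXIN2, a feedback inhibitor made in response to beta-catenin, was at 4.03, 4.74 and 4.67 FPKM in control and 1.9, 1.79 and 1.85 in BafA1. The receptors FZD8 and FZD4 fell by 1.16 and 0.93 and the ligand WNT5A by 0.98, while FZD6 rose by 0.63. In the Notch pathway 6 of 21 rose and 11 fell (5 and 10 under all scalings), median −0.22. NOTCH3 fell by 1.27 and NOTCH2 by 0.71, and HEY1 and JAG1 rose by 0.58 and 0.52. Of 18 Hippo genes 9 rose and 6 fell (8 and 1 under all scalings), with ANKRD1 far ahead of LATS1, which rose by 0.68, and TEAD2 fell by 0.68.

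Death and cell cycle genes changed in both directions. Of 29 apoptosis regulators 14 rose and 12 fell (8 under all scalings), with a median of 0.00. TNFRSF12A, the receptor of TWEAK, was at 3.33, 4.44 and 3.28 FPKM in control and 49.7, 52 and 48 in BafA1. BBC3, PMAIP1 and HRK, activators of mitochondrial death, rose by 1.67, 1.66 and 1.49, while BAX, BID and CASP6 fell by 0.77, 0.72 and 1.46. Of 26 p53 targets 12 rose and 9 fell (11 and 7 under all scalings), median 0.11, and CDKN1A (p21) was at 6.95, 7.63 and 7.32 FPKM in control and 40.2, 39.1 and 37 in BafA1. TP53I3, SESN1 and FAS, also p53 targets, fell by 0.80, 0.75 and 0.75.

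Among 34 cyclins, kinases and their inhibitors 14 rose (41.2%) and 12 fell (35.3%, 8 genes under all scalings), median 0.14. MYC was at 51, 51.7 and 53.1 FPKM in control and 123, 121 and 109 in BafA1, and its antagonist MXD1 rose by 1.65. CCND2 rose by 1.14 whereas CCND1 and CCNE1 fell by 0.73 and 0.72, and the inhibitors CDKN2C and CDKN1C fell by 1.04 and 0.79. Genes for DNA replication rose in 14 of 38 (36.8%) and fell in 12 (31.6%, 9 genes under all scalings), median 0.02, near the shares of all protein-coding genes. The licensing factors CDC6 and CDT1 rose by 0.91 and 0.90 and the GINS subunit GINS4 fell by 0.80. Mitosis genes rose in 23 of 38 and fell in 10 (7 under all scalings), median 0.17, with NDC80 and NUF2 of the kinetochore up by 0.62 and 0.61 and CDC20 down by 0.51.

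The largest fall was that of the inducible HSP70 genes. HSPA1B was at 504, 576 and 579 FPKM in control and 63.7, 63 and 59.9 in BafA1, and its near-identical copy HSPA1A at 11.8, 17.4 and 13.2 FPKM in control and 1.08, 1.67 and 1.36 in BafA1; reads of the pair are divided by estimate. HSPA8, the constitutive HSP70, was at 1196, 1188 and 1186 FPKM in control and 389.5, 399.5 and 398 in BafA1. Folds were 8.89, 10.3 and 3.01 downward (adjusted p = 3.72e-08, 4.01e-06 and 2.69e-08). Of 25 cytosolic HSP70 chaperones and partners 5 rose and 15 fell (13 under all scalings), median −0.28. HSPB1 (HSP27) fell by 1.25. HSPB8 was an exception at 3.23, and the rises of BAG5, BAG6 and HSPA14 were 0.24, 0.24 and 0.23.

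HSP90, chaperonin and proteasome genes were lower. HSF2 rose by 0.56 and 21 of 24 HSP90, chaperonin and prefoldin genes fell (16 under all scalings), median −0.34. There were 2 rises without BafA1 replicate 3, and also 2 after quantile normalization and 2 with mitochondrial genes removed. HSP90AA1 was at 1407, 1374 and 1364 FPKM in control and 843, 865 and 878 in BafA1, and HSP90AB1, CCT6A and PFDN6 fell by 0.66, 0.64 and 0.68. Of 36 proteasome genes 30 fell (27 under all scalings) and PSME4, an activator that caps the proteasome, rose by 0.23. Rises numbered 2 without Ctrl replicate 1, 5 after quantile normalization and 4 under each of the other scalings. The median was −0.40, and PSMA7, a subunit of the outer ring, was at 216, 219 and 213 FPKM in control and 127, 121 and 126 in BafA1. The ubiquitin, SUMO and NEDD8 list was near the share of all protein-coding genes, with 14 of 48 higher (29.2%) and 20 lower (41.7%, 17 genes under all scalings), median −0.04. SUMO3, NEDD8 and RBX1 fell by 0.74, 0.71 and 0.61.

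Nuclear genes for mitochondria were lower across their functions. All 34 nuclear-encoded subunits tested of complexes III, IV and V fell (32 under all scalings), median −0.57, and 33 of 37 complex I subunits fell and 1, NDUFV3, rose (not without BafA1 replicate 3), median −0.55. ATP5MC1, a gene for the rotor ring of ATP synthase, was at 254, 265 and 241 FPKM in control and 92.7, 92.7 and 90.6 in BafA1. NDUFB3, a small membrane subunit of complex I, was at 159, 159 and 153 FPKM in control and 77.8, 74.8 and 76.9 in BafA1, and UQCR10 fell by 1.08. The folds of ATP5MC1 and NDUFB3 were 2.75 and 2.05 downward. Subunits made inside mitochondria went the other way: 8 of 13 rose and none fell, median 0.40, and all 13 rose without Ctrl replicate 3. MT-CO2, a cytochrome oxidase subunit, was at 1565, 1717 and 2236 FPKM in control and 2997, 2560.0 and 3142 in BafA1, and MT-ND1 rose by 0.64.

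Of 53 mitochondrial ribosomal protein genes 3 rose and 43 fell (36 under all scalings), median −0.42, with MRPS28 lowest at −1.01. Of 37 genes for import, chaperones and proteases 7 rose and 24 fell, median −0.35. HSPE1 (HSP10) was at 605, 596 and 564 FPKM in control and 242, 241 and 255 in BafA1, and TOMM6 fell by 1.14. TIMM9 and the protease LONP1 rose by 0.80 and 0.64. Of 30 pyruvate and TCA cycle genes 2 rose and 21 fell (18 under all scalings), median −0.30. PDK1, which turns off pyruvate dehydrogenase, was at 14.3, 13.2 and 11.6 FPKM in control and 31.4, 35.3 and 33.8 in BafA1, whereas PDK2 and OGDH fell by 0.88 and 0.95. IDH1, the cytosolic isocitrate dehydrogenase, was at 55.4, 52.9 and 52.3 FPKM in control and 14.1, 14.9 and 15.1 in BafA1, a 3.64-fold fall; it overlaps the antisense gene IDH1-AS1. In fatty acid oxidation and peroxisomes 2 of 32 rose and 21 fell (18 under all scalings), median −0.31, with CPT1C down by 1.24, catalase (CAT) down by 0.65 and ACADVL up by 0.80.

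Iron-sulfur cluster and heme assembly genes fell in 23 of 33 and rose in 3 (19 and 3 under all scalings), median −0.29. BOLA3 and CIAPIN1, which work in mitochondrial and cytosolic cluster assembly, fell by 0.73 and 0.70, and HSCB, a co-chaperone of the same pathway, rose by 0.49. Of 22 iron uptake, storage and regulation genes 6 rose and 11 fell (9 under all scalings), and their median moved from −0.10 to between −0.04 and 0.01 with the scaling. TFRC, the transferrin receptor, was at 58.6, 57.2 and 59.1 FPKM in control and 131, 133 and 127 in BafA1. STEAP1 and the iron reductase STEAP3 fell by 0.98 and 0.73, and PCBP2, an iron chaperone, rose by 0.34. Among 37 oxygenases that need iron and 2-oxoglutarate 23 rose and 6 fell (5 under all scalings), median 0.27. KDM6B, a histone H3 demethylase, was at 2.69, 3.79 and 3.97 FPKM in control and 13.7, 11.2 and 11.5 in BafA1, and EGLN3 and TET1 fell by 0.87 and 0.51. Hypoxia-induced genes rose in 25 of 40 and fell in 7 (5 under all scalings), median 0.44. SLC2A1 (GLUT1) rose by 1.37 and CA12 and CITED2 fell by 0.62 and 0.50. In glycolysis 7 of 22 rose (31.8%) and 6 fell (27.3%, 4 genes under all scalings), median 0.02, against 30.8% and 38.6% of all protein-coding genes. HK2 and ENO2 rose by 1.72 and 1.07 and PGAM1 and LDHB fell by 0.71 and 0.50.

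Redox genes were lower in the main. Of 34 glutathione, thioredoxin and NRF2 genes 25 fell (23 under all scalings) and 3 rose, median −0.50. GPX1, a glutathione peroxidase, was at 183, 194 and 176 FPKM in control and 72, 65.8 and 64.7 in BafA1. PRDX1, an abundant peroxiredoxin, was at 838, 816 and 801 FPKM in control and 349.7, 356 and 372 in BafA1, and NQO1 and GCLM, both NRF2 targets, fell by 1.03 and 1.01. NFE2L2, the gene of NRF2, rose by 0.64, and CHAC1, which degrades glutathione and is a target of ATF4 and CHOP, was at 2.8, 3.29 and 2.49 FPKM in control and 24.3, 18.9 and 21.4 in BafA1. The 3 metallothioneins tested, MT1X, MT2A and MT1F, fell by 1.43, 1.32 and 0.80, and 4 others on the list were under the expression minimum. In the whole metallothionein and zinc transporter list 7 of 21 rose and 11 fell, median −0.26, and the ER and Golgi zinc carriers SLC30A7, SLC30A5 and SLC39A7 rose by 0.80, 0.71 and 0.55.

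Selenoproteins, which carry selenocysteine and were picked as a family after values were seen, went both ways. Of 19 tested 5 rose and 10 fell, median −0.39. The peroxidases GPX3, GPX1 and GPX4 fell by 1.48, 1.43 and 0.69, and SELENOH, SELENOW and MSRB1 by 1.36, 1.31 and 1.17. Members of the ER were on both sides. Among the rises were SELENOS by 1.52, SELENOK by 1.31 and SELENOI, an ethanolamine phosphotransferase, by 0.92. SELENON, SELENOT and SELENOM, also of the ER, fell by 0.82, 0.57 and 0.39. TXNRD1, a thioredoxin reductase, was at 89.3, 87.8 and 86.4 FPKM in control and 91, 94 and 87.5 in BafA1 (log2 0.05 ± 0.04, adjusted p = 0.273). Centred for transcript length and GC content, the family had 7 rises, 9 falls and a median of −0.07.

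Genes of the inhibited organelle did not rise together. Of 18 V-ATPase subunits 4 rose and 10 fell (3 and 8 under all scalings), median −0.17. ATP6V0A2 and ATP6V0A1, forms of the largest membrane subunit, rose by 0.86 and 0.64, and ATP6V0C, which forms the ring where BafA1 binds, was at 87, 85.5 and 75.7 FPKM in control and 61.4, 59.3 and 73.7 in BafA1, a change of −0.35 ± 0.09 (adjusted p = 0.00833). Of 42 lysosomal hydrolases and membrane proteins 5 rose and 27 fell (21 under all scalings), median −0.29. CTSC, a cathepsin, was at 38.2, 37.4 and 34.9 FPKM in control and 14.4, 17.4 and 18.7 in BafA1, and CTSA and PPT1 fell by 1.07 and 0.96. NPC1, which exports cholesterol from lysosomes, was at 13.9, 14.1 and 16.4 FPKM in control and 28.4, 23.6 and 28.3 in BafA1, and GLA and NEU1 rose by 0.69 and 0.49.

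Autophagy genes rose in 20 of 39 and fell in 4 (3 under all scalings), median 0.30. GABARAPL1, of the ATG8 family that coats autophagosomes, was at 21.9, 17.9 and 17.2 FPKM in control and 46.1, 44.9 and 45.2 in BafA1. RB1CC1, of the starting kinase complex, rose by 0.99, and the mitophagy receptor BNIP3 by 0.98. ATG9A, PIK3R4 and GABARAPL2 fell by 0.42, 0.36 and 0.31; GABARAP fell by 0.12 as deposited and had the other sign, 0.04, after quantile normalization. Of 38 endosomal sorting genes 15 rose and 17 fell (14 and 14 under all scalings), with VPS37A up by 0.72 and CHMP4A down by 0.67. Of 34 Rab GTPases 13 rose (38.2%) and 11 fell (32.4%, 8 genes under all scalings), near the shares of all protein-coding genes. RAB39B was at 4.92, 4.81 and 5.02 FPKM in control and 22.5, 24.5 and 22.4 in BafA1 and the early endosome gene RAB5A rose by 1.07, while RAB3D and RAB3A, known from regulated secretion, fell by 1.17 and 0.98.

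Cholesterol genes were lower: 17 of 25 fell (14 under all scalings) and 2 rose, median −0.34. MSMO1, a sterol oxidase, fell by 0.99. HMGCS1, at the head of the pathway, was at 52.3, 50.6 and 51.1 FPKM in control and 53.1, 54.5 and 51.6 in BafA1 and was not called (log2 0.05 ± 0.04, adjusted p = 0.279). In fatty acid synthesis 5 of 19 rose and 9 fell (6 under all scalings), and SCD, a desaturase, was at 217, 219 and 220.1 FPKM in control and 104, 104 and 112 in BafA1. SREBF1, the gene of SREBP1, rose by 0.90. Among 29 glycerophospholipid genes 5 rose and 11 fell (4 and 10 under all scalings): PCYT2, of phosphatidylethanolamine synthesis, fell by 1.40 and LPIN1, a phosphatidate phosphatase, rose by 0.88. Sphingolipid genes rose in 11 of 24 and fell in 5 (4 under all scalings), median 0.09. SGMS2 (sphingomyelin synthase), UGCG (glucosylceramide synthase) and CERT1, which carries ceramide to the Golgi, rose by 1.47, 1.24 and 0.94, and the sphingosine kinase SPHK1 fell by 0.68.

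Developmental genes that this line expresses were lower. Of 31 HOX genes tested none rose (1 without BafA1 replicate 2) and 26 fell (24 under all scalings), and the median of −0.77 was the lowest of the lists tested. HOXA13 was at 9.63, 10.9 and 11 FPKM in control and 2.47, 1.7 and 2.33 in BafA1, and HOXC9 at 12.5, 13.1 and 10.8 FPKM in control and 4.09, 3.21 and 3.56 in BafA1. HOXA9 and HOXA10 fell by 1.37 and 1.28. Among 42 other homeobox and developmental factors 6 rose and 27 fell (23 under all scalings), median −0.39. EYA1, a coactivator in organ development, rose by 0.74. SOX12 and ISL1 fell by 1.39 and 1.16. POU3F2 (BRN2) and HLX, in no list, fell by 1.72 and 1.67. ALDH1A2, which makes retinoic acid, an inducer of HOX genes in embryos, was at 30.9, 28.5 and 31.5 FPKM in control and 8.5, 8.42 and 8.49 in BafA1, a 3.58-fold fall.

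Of 47 chromatin genes 19 rose (40.4%, 18 genes under all scalings) and 16 fell (34.0%, 13 genes under all scalings). Over all protein-coding genes the shares were 30.8% and 38.6%. CBX2, a Polycomb subunit that reads methylated histone H3, was at 24.4, 25.6 and 24.9 FPKM in control and 6.5, 6.28 and 6.15 in BafA1 (log2 −1.83 ± 0.05, adjusted p = 1.75e-07). DNMT3B and UHRF1, of DNA methylation, fell by 0.97 and 0.67, and the acetyltransferase CREBBP, the methyltransferases KMT2A and EZH2 rose by 1.03, 0.87 and 0.74. Replication-dependent and linker histone genes tested numbered 12, with no rise and 6 falls. Replication-dependent histone messages lack poly(A) tails and are poorly captured by poly(A) selection. The linker histone gene H1-10 fell by 0.84.

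Zinc finger genes with a ZNF symbol, a family picked after values were seen, were often higher. Of 386 tested 203 rose and 46 fell (201 and 30 under all scalings), median 0.25, against 30.8% and 38.6% of all protein-coding genes. Many encode repressors with KRAB domains. After centring for length and GC content 197 rose and 44 fell, with a median of 0.23. ZNF550 was at 2.45, 2.89 and 2.4 FPKM in control and 11.3, 10.3 and 11.8 in BafA1, and ZNF274, which helps to silence clusters of zinc finger genes, rose by 1.52. ZNF503 and ZNF488 fell by 1.06 and 1.01.

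RNA processing genes divided by function. Of 45 splicing factors 11 rose and 28 fell (20 under all scalings), median −0.20. SRSF2, an SR protein, was at 305, 294 and 288 FPKM in control and 178, 166 and 173 in BafA1, and SRSF3 and SRSF7 fell by 0.72 and 0.70. CLK kinases phosphorylate SR proteins. CLK1 was at 20.8, 21.1 and 21 FPKM in control and 66.8, 65.9 and 67.2 in BafA1, CLK3 rose by 0.76, and CLK4 rose from 7.62 ± 0.356 to 16.2 ± 0.858 FPKM. CLK2 was at 42.6 ± 2.86 and 42.2 ± 4.85 FPKM and was not called (adjusted p = 0.875). Of 39 RNA decay genes 20 rose and 10 fell (6 under all scalings), median 0.16, led by ZFP36 (tristetraprolin), which marks AU-rich messages for decay, at 1.61, and the decapping and deadenylation genes DCP1A and PAN2 at 1.36 and 1.33.

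Adhesion, matrix and tubulin genes were mostly lower. Of 45 adhesion and matrix genes 6 rose and 29 fell (28 under all scalings), median −0.52. The basement membrane chains COL4A2 and COL4A1, a head-to-head pair that overlaps in the annotation, were lower: COL4A2 was at 14.8, 16.2 and 16.5 FPKM in control and 4.54, 4.39 and 4.15 in BafA1, and COL4A1 fell by 1.50. COL2A1 and COL18A1 fell by 1.55 and 1.57. Collagens by symbol, picked after values were seen, fell in 12 of 17 and rose in 1 (11 and 1 under all scalings). TNC (tenascin C), a matrix protein of injury and development, was at 0.86, 0.75 and 0.56 FPKM in control and 7.09, 6.16 and 6.23 in BafA1 and rose 8.98-fold. In the actin list 9 of 41 rose (22.0%) and 18 fell (43.9%, 16 genes under all scalings), with a median of −0.08, against 30.8% and 38.6% of all protein-coding genes. ACTB was at 1284, 1359 and 1378 FPKM in control and 560.0, 586 and 574 in BafA1, TPM1 fell by 1.29 and RHOB rose by 1.22. ARHGDIA, a GDP dissociation inhibitor, fell by 1.61. Of 29 tubulins and partners 6 rose and 19 fell (13 under all scalings), with TUBB4A down by 1.45, TUBB by 1.04 and MAP1B up by 1.44. DYNLL1, a dynein light chain, was at 358, 367 and 347 FPKM in control and 116, 115 and 119 in BafA1. ACTB, ACTG1, TUBA1B and other genes at these levels have many processed copies, so their read assignment is uncertain.

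Smaller groups were mixed. In 26 interferon and NF-kB genes 11 rose and 11 fell (9 under all scalings). RELB and NFKB2 of the alternative NF-kB pathway rose by 1.42 and 0.93 and ISG15 by 1.58, while IFIT1 fell by 1.67 and the antigen genes HLA-C and TAP1 by 0.55 and 0.70. IFIT1 overlaps LIPA in the annotation. In 24 neuronal genes 8 rose and 11 fell (8 under all scalings): NEFM, a neurofilament chain, was at 48.9, 48.5 and 51.7 FPKM in control and 107, 107 and 92.6 in BafA1. In 34 ion pump and calcium genes 8 rose and 12 fell (8 under all scalings), with CLCN3, an endosomal chloride exchanger, up by 0.56 and ATP13A2, a lysosomal polyamine exporter, down by 0.91. Of 28 nucleotide synthesis genes 5 rose and 15 fell (4 and 10 under all scalings), with NME1 down by 0.82 and AMPD2 up by 0.37.

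Measured in FPKM, the largest gains included MT-CO2, EIF1, EEF2, ATF3, HSPA5, ATF4, HSP90B1, TPT1 and PABPC1, and the largest losses were in ACTG1, PTMA, HSPA8, ACTB, NPM1, PPIA, TUBA1B, HNRNPA2B1, HSP90AA1 and RAN. ACTG1, a cytoplasmic actin, was at 2153, 2263 and 2249 FPKM in control and 1213, 1178 and 1161 in BafA1, and PTMA, a small acidic nuclear protein, at 1836, 1812 and 1759 FPKM in control and 916, 962 and 975 in BafA1. The changes of TPT1, PABPC1, NPM1 and PPIA were 0.33, 0.38, −0.38 and −0.60 log2 units, small in ratio and large in FPKM.

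Changes also varied with the form of the transcript. In 5 equal bins of protein-coding genes by length of their annotated transcripts, the median change was −0.25 in the shortest and 0.09 in the longest, with −0.10, −0.03 and 0.03 between. In 5 bins by GC content it was 0.13 in the lowest and −0.22 in the highest. These gradients were present in each treated library: in the shortest bin the 3 medians against the control mean were −0.25, −0.26 and −0.26, and in the bin richest in GC −0.15, −0.26 and −0.22. Spearman's rank correlation over 11513 genes, which are not independent, was 0.244 with length, −0.244 with GC content and 0.005 with mean level. Rises and falls of at least 1 log2 unit numbered 44 and 76 in the shortest bin and 77 and 23 in the longest.

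**Figure D4:**
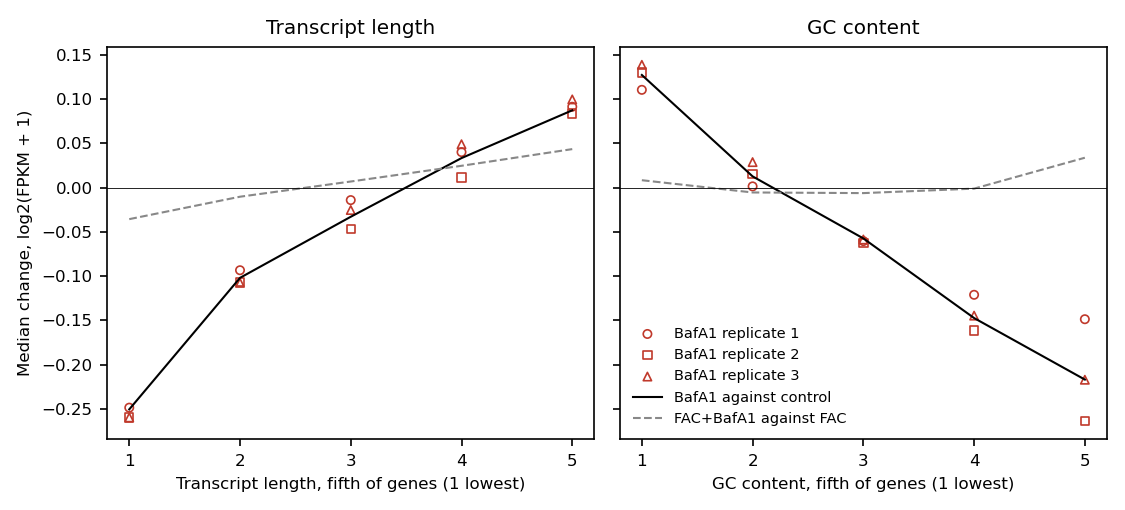
Median change on the log2(FPKM + 1) scale in 5 bins of protein-coding genes by transcript length (left) and GC content (right); the black line is BafA1 against control, red symbols are each BafA1 library against the control mean, and the grey dashed line is FAC+BafA1 against FAC. Without FAC the median goes from −0.25 to 0.09 with length and from 0.13 to −0.22 with GC content.

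Short transcripts are common in some of the groups above, so the change was also computed with the median of 25 bins of length and GC content set to 0 in each library. The centring was chosen after seeing the data. By the centring alone, 32.7% of protein-coding genes rose and 35.0% fell. Under the centring and every scaling alike, 3062 protein-coding genes rose and 3192 fell. By the centring alone, complexes III to V had 32 falls and no rise (median −0.42), complex I 30 falls and 1 rise (−0.41), the proteasome 26 falls and 5 rises (−0.27), HOX genes 23 falls and 2 rises (−0.64), and ER-Golgi transport 31 rises and 2 falls (0.57). Cytosolic ribosomal protein genes had 9 rises and 9 falls, with a median of 0.02, and mitochondrial ribosomal protein genes 5 rises and 34 falls, with −0.24. CALR, CRELD2, LMAN2 and GABARAP, which fell as deposited, stood at 0.04, 0.00, 0.01 and 0.04. The part of transcript length and GC content in the results was not tested.

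The same genes were followed in cells given FAC before BafA1, against FAC alone, a comparison that shares no library with the one above. Libraries with and without FAC fill gene entries differently: 627 genes had no FPKM in any library of one kind while every library of the other kind had at least 1 FPKM, and 5 of these genes are protein-coding genes tested here. Changes were therefore taken within each side, and the difference between them was tested over all 12 libraries as an interaction. FAC coincides with this difference between libraries, so their parts in the interaction cannot be told apart. With FAC, 9.1% of protein-coding genes rose and 8.49% fell, and the interaction was called in 54.5%.

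The 20 largest rises without FAC all rose with FAC too, and all 20 changed less by the interaction. Their median was 3.33 without and 1.15 with FAC. These genes and the 20 largest falls were picked by their change without FAC, and the interaction reuses those libraries. The pick itself therefore favours a smaller change with FAC. EGR1 went from 0.537 ± 0.102 FPKM with FAC to 13.8 ± 1.89 with FAC+BafA1, a log2 change of 3.26 against 6.98 without FAC. CTH rose by 0.27 with FAC, from 17.7 ± 0.479 to 21.5 ± 0.536 FPKM. HSPB8 and TNFRSF12A kept more of their rise, at 2.31 and 2.46 against 3.23 and 3.45. Of the 20 largest falls, 16 fell with FAC, 3 were not called and 1, ID3, rose, with medians of −1.69 and −0.51. HSPA5 was at 185 ± 2.62 and 185 ± 2.88 FPKM (log2 0.00, adjusted p = 1), and MYC changed by 0.03. TFRC was an exception in the other direction and rose by 3.46 with FAC, from 10.3 ± 1.29 to 122 ± 3.03 FPKM, against 1.15 without it.

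Of the 344 protein-coding genes that rose by at least 1 log2 unit without FAC, 203 rose, 4 fell and 137 were not called with FAC; the interaction was called toward a smaller change in 333 and a larger one in 1. Of the 238 that fell as far, 110 fell, 1 rose and 127 were not called, with 234 smaller and 1 larger. Both sets were also picked by their change without FAC, which favours a smaller change with FAC. By group, the median change with FAC was 0.05 for ER-Golgi transport and 0.01 for ER chaperones, against 0.50 and 0.57 without. It was −0.13 for complexes III to V and −0.10 for complex I, −0.18 for HOX genes, −0.12 for the proteasome and 0.91 for immediate early genes, of which 19 of 23 rose. The gradient with GC content was small with FAC (rank correlation 0.043 against −0.244), and that with length was 0.160 against 0.244.

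**Figure D5:**
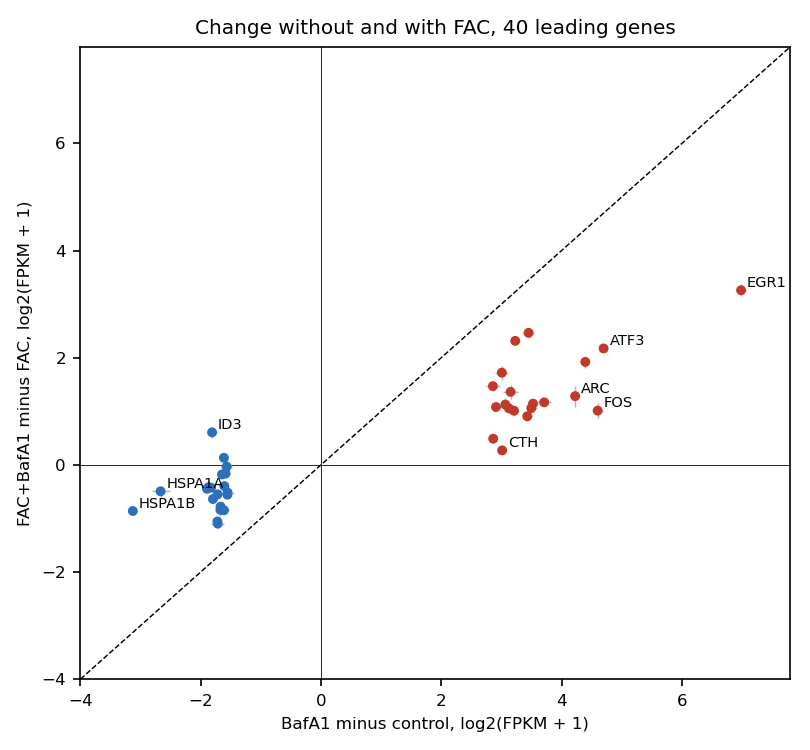
Change in BafA1 without FAC (x axis) and with FAC (y axis), both on the log2(FPKM + 1) scale with SE bars, for the 20 largest rises (red) and 20 largest falls (blue) without FAC; the dashed line marks equal change. All 40 points lie on the side of smaller change with FAC, and ID3 alone has changed sign among called genes. Picking genes by their change without FAC favours that side.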

How the data were processed

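RNA was harvested from HEK293T cells and sequenced from a stranded poly(A) library kit, per the labels' protocols. The authors deposited 1 table of FPKM for 56340 gene entries, of which 3 were repeats of an ID at 0 and were dropped. STAR, RSEM and the build GRCh38 are named in the submitters' processing notes; their versions, the annotation release, filters and the use of strand in counting are not stated in the labels or the table. A search for steps of single fragments in low FPKM placed depth at 34.5 to 36.75 M fragments, but 53.3% to 56.0% of values lay within 0.2 of a whole number, so depth is unknown and no count model was run.

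Values were taken as log2(FPKM + 1) and genes averaging 1 FPKM or more in the 6 libraries were fitted with limma 3.58.1 in R 4.3.3, with an intensity trend and no block; Benjamini-Hochberg adjustment ran over all 13493 genes. FAC+BafA1 against FAC and the interaction were fitted likewise. Errors are SDs over 3 libraries for FPKM and limma standard errors for log2 changes. Names and positions came from GENCODE 44 and matched 56104 IDs. The fit was tested on simulated data before use.

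Genes named were the 20 largest rises and 20 largest falls among called protein-coding genes without overlap, the 10 largest changes in FPKM each way, up to 4 called members per list and direction, and 10 genes named in any case; selenoproteins, collagens and ZNF genes were added after values were seen, and a few genes that the rule names are not reported here. Of 524 such genes, 154 overlap another tested gene in the annotation. The members and the 67 gene lists, besides 4 of markers, were chosen with earlier results of these data known; some lists share genes. No set test was run. Replicate numbers did not pair the libraries. Alternatives were 18 in number: pseudocount, filters, scalings, fit and left-out libraries.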

Additional observations from a re-analysis of the deposited data

Results flagged for a closer look

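The change with BafA1 differed between cells with and without FAC, in called and opposite directions, for ASNS and ID3 among the genes named above. ASNS rose by 1.55 log2 units without FAC and fell by 0.27 with FAC, and the interaction was −1.81 on the log2 scale. ID3 fell by 1.81 without FAC and rose by 0.61 with FAC, and the interaction was 2.42.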

How the results depend on the processing

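Over all 13493 genes, 3963 rose and 4929 fell, 417 and 298 of them by at least 1 log2 unit. The last number was 587 with a pseudocount of 0.1, 183 at a mean of at least 5 FPKM, 191 with mitochondrial genes removed and 186 with length and GC centring, an alternative chosen after seeing the data, as was rescaling to TPM. All other alternatives left these counts within 1.5 times. Leaving out each library in turn gave 3642 to 3846 rises and 4491 to 4718 falls. Same-numbered libraries did not deviate together (correlations of −0.048, −0.002 and −0.013), and a replicate block gave 3841 rises and 4781 falls. With the centring, the log2 changes of SC5D, HMGCS1, LMAN2, GABARAP, CALR and CRELD2 took the other sign, at −0.0485, −0.108, 0.0058, 0.0419, 0.0386 and 0.0048. CALR was at 0.17 and GABARAP at 0.0389 after quantile normalization, and CALR at 0.0155 with mitochondrial genes removed and 0.0015 after rescaling to TPM; the cause was not tested. Of the other values of named genes, 9210 kept direction and call, 138 lost the call and 15 gained it. Of list counts, 2284 stayed within 1.5 times and 128 did not. Depth is unknown, so counting error of genes near 1 FPKM could not be given.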
